A study of Mus musculus with 6 samples.

Results

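The T cell receptor complex and its nearest signalling proteins were examined through 9 genes chosen by symbol, *Cd3d*, *Cd3e*, *Cd3g*, *Cd247*, *Lck*, *Zap70*, *Lat*, *Lcp2* and *Cd5*, of the 45777 genes listed. They are represented by 32 of the 129299 listed transcripts. All 9 passed the filter on low counts that left 16123 genes. The RNA came from CD4+ T cells of the spleen of female C57BL/6 mice 7 weeks of age, separated by flow cytometry into CD4+Lrig1+ and CD4+Lrig1- cells (Lrig1+ and Lrig1- below). No mouse carried a transgene or deletion that the labels mention, and no treatment is stated. The labels list 3 samples of each group. The libraries analysed here are 2 of Lrig1+ and 2 of Lrig1- cells, with 1 library of each group in each of 2 tables, called set 1 and set 2 here. The labels do not say how many mice gave each library, so the p-values below measure only the spread between these samples. In the reported fit this is the spread of the group difference over the 2 sets. It rests on 1 residual degree of freedom and on variance information shared over all genes.

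An αβ T cell recognizes antigen through the T cell receptor, whose α and β chains have almost no cytoplasmic part and signal through the invariant CD3γ, CD3δ, CD3ε and ζ chains. The kinase Lck, held at the CD4 coreceptor, phosphorylates motifs in the tails of these chains, and the kinase ZAP-70 docks there and is activated. ZAP-70 then phosphorylates the scaffold proteins LAT and SLP-76, which assemble the enzymes that open the calcium, Ras and NF-κB branches. CD5 is a surface protein of T cells that dampens this signal, and its level is known to rise with the strength of T cell receptor signalling. In regulatory T cells, which express the transcription factor Foxp3, T cell receptor signalling is known to be needed for suppressive function.

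The libraries held 44865070 to 59977951 estimated counts. Values are given as TMM-normalized CPM (counts scaled to the library's effective size) in the order Lrig1+ then Lrig1- of set 1, followed by the same order in set 2. Taken over genes, which share libraries and are no replicates, the correlation of log2 CPM was 0.960 and 0.959 between the groups of a set and 0.908 between the sets of either group. The comparison was therefore made within sets, with the table as a term of the fit. *Lrig1* itself had 221, 75.4, 129 and 36.7 CPM and was the higher in the Lrig1+ library of each set, as the label says. *Foxp3* had 589, 48.9, 615 and 30.7 CPM, so the groups also differed in this regulatory T cell gene by a log2 fold change of 3.95 ± 0.18 (SE; edgeR quasi-likelihood adjusted p = 1.57e-05). *Cd4* had 924, 936, 1064 and 1100 CPM. The 10 B cell markers summed to 98.3, 78.5, 391 and 775 CPM, the 6 myeloid markers to 62.8, 58.4, 245 and 253, the 6 NK cell markers to 32.7, 34.7, 75.1 and 96.8 and the 2 CD8 T cell markers to 14.1, 19.5, 51.6 and 97.3, against 5178, 6013, 7047 and 8426 for 8 T cell markers. None of these markers was at 0 in any library. The NK cell, T cell and myeloid sums mix both directions, and so does the B cell sum in set 1. Of the 6 NK cell markers, 4 were called lower in Lrig1+ cells (12.8% of all genes) and 1 higher (14.6%), at an edgeR adjusted p under 0.05. The higher one, *Eomes*, had 24.1, 4.20, 41.3 and 9.18 CPM. The median log2 ratio of the 6 was -1.52 in set 1 and -1.35 in set 2. Of the 8 T cell markers, 2 were called lower (12.8% of all genes) and 1, *Cd2*, higher (14.6%). The lower ones were *Tcf7*, with 1094, 1713, 1306 and 2218 CPM, and *Il7r*, with 326, 606, 190 and 579. The median log2 ratio of the 8 was -0.06 in set 1 and -0.11 in set 2. The sums for B, myeloid, NK and CD8 T cells were higher in set 2, and each was highest in the Lrig1- library of set 2. The margin over its Lrig1+ library was widest for B and CD8 T cells and small for myeloid cells. The small myeloid margin sums opposite changes. Of the 6 myeloid markers, 1 was called higher (*Csf1r*, log2 fold change 1.04). The 2 called lower were *Itgam* (-1.47) and *Fcer1g* (-0.64). In set 1 the B cell sum was higher in the Lrig1+ library, with log2 ratios of 1.02 for *Cd22* and 0.98 for *Cd79b*. The median log2 ratio of the 10 B cell markers was -0.08 there and -1.13 in set 2. The 5 regulatory T cell markers, among them *Foxp3*, summed to 2020, 207, 1717 and 140 CPM, so this list moved with the group in every comparison below, and its part in the results was not tested. In bulk RNA, fewer cells of a type and less RNA per cell cannot be told apart.

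The sequences upstream of the genes on which the results below turn are shown first. They are the 250 bases before the transcription start from the RefSeq windows of GRCm38.p6, in which all 9 genes were found by gene ID, with a total of 12 windows because *Lck* and *Zap70* start at several sites. *Lck* is shown at both of its separate start regions, and *Zap70*, *Lcp2* and *Cd5* are the members that differed between the groups. Each line runs 5′ to 3′ on the strand of the gene. Capitals mark matches, on either strand, to the E-box CAGGTG, the Ikaros core TGGGAA, the RUNX core TGTGGT and the GATA core AGATAA.
Lck, far start (chr4:129573642-129573891, minus strand): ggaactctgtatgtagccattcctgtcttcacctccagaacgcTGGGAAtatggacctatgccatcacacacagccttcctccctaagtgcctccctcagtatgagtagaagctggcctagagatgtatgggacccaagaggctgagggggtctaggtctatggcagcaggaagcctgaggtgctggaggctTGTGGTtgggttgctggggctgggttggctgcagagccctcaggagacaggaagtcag
Lck, near start (chr4:129558373-129558622, minus strand): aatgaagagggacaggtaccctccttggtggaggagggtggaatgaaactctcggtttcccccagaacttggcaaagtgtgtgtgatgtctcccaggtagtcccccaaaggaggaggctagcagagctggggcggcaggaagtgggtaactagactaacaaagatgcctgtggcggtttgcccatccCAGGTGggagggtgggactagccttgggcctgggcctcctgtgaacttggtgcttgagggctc
Zap70, first start (chr1:36761548-36761797, plus strand): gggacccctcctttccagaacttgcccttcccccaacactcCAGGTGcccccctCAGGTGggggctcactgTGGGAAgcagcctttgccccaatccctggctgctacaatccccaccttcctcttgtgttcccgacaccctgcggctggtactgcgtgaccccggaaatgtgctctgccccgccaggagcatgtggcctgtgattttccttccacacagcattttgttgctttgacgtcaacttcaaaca
Lcp2 (chr11:34046678-34046927, plus strand): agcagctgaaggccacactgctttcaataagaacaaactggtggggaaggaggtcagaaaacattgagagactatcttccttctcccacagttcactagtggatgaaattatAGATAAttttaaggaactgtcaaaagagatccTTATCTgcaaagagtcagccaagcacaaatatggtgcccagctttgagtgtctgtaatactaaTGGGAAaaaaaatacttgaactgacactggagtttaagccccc
Cd5 (chr19:10738975-10739224, minus strand): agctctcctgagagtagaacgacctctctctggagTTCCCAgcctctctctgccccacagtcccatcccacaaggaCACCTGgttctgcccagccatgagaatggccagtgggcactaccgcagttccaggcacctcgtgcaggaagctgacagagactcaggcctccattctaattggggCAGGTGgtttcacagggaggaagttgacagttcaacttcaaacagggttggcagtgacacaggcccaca

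In capitals, the far *Lck* window holds the Ikaros core 207 bases before its start and the RUNX core at 58 bases, while the near window holds an E-box at 63 bases. The *Zap70* window holds E-boxes at 209 and 196 bases and the Ikaros core at 179. The *Lcp2* window holds the GATA core at 138 and 106 bases and the Ikaros core at 43, and the *Cd5* window holds the Ikaros core at 215 and E-boxes at 174 and 69. Of the 12 windows of the members, 7 held the E-box, which 17.2% of all 32851 windows of this length held, and 7 held the Ikaros core, found in 21.6% of all windows. The RUNX core was in 2 of 12 (14.0% of all) and the GATA core in 2 of 12 (9.99% of all). The TATA box TATAAA, in 12.4% of all windows, and the ETS core CCGGAAG, in 6.91%, matched in 0 of 12. No pair of these motifs shares letters in the same stretch of the windows shown. These are matches of letters in a window, and the data hold no measurement of binding at them.

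Between Lrig1+ and Lrig1- cells, the kinase gene *Zap70*, the SLP-76 gene *Lcp2* and the CD5 gene *Cd5* were higher in Lrig1+ cells, by 1.43-fold, 1.30-fold and 1.31-fold. The 4 genes of the CD3 and ζ chains, *Lck* and *Lat* did not pass the test. Of the 9 genes, 3 were therefore called higher and 0 lower (edgeR quasi-likelihood test with the table as a term, Benjamini-Hochberg adjusted p under 0.05). Among all genes tested, 14.6% were called higher and 12.8% lower, 27.4% in either direction. The median log2 fold change of the 9 genes was 0.08, against -0.04 over all genes. The direction was the same in both sets for 8 of 9 genes, against 77.7% of all genes. On the CPM scale, in 3 of the 9 the groups did not overlap with Lrig1+ higher (14.3% of all genes), and in 1 they did not overlap with Lrig1+ lower (11.8%). The fit with the table as a term leaves 1 residual degree of freedom. Without that term, 0 of 16123 genes were called, members included (every member's adjusted p = 1.00), while 674 genes were higher and 227 lower at an unadjusted p under 0.05, none of them a member.

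**Figure D1:**
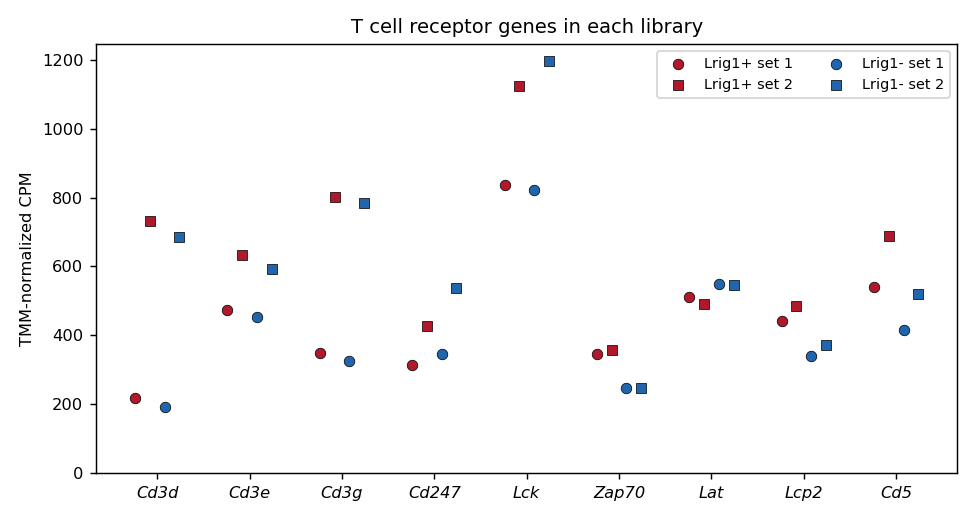
TMM-normalized CPM (y axis) of the 9 genes (x axis), with 1 point for each of the 4 libraries, red for Lrig1+ and blue for Lrig1-, circles for set 1 and squares for set 2. For *Zap70*, both red points (346 and 358) lie above both blue points (246 and 246), while for *Cd3d* the squares lie far above the circles in both colours.

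The CD3 chains pair as γε and δε and carry the receptor to the surface. *Cd3e* (gene ID 12501), which encodes the ε chain present in both pairs, lies on chromosome 9 of GRCm38 from 44998735 to 45009663. It had 472, 453, 632 and 594 CPM. The Lrig1+ library was the higher in each set by a small margin, but the groups overlapped. Its log2 fold change was 0.08 ± 0.09 (SE), with a 95% interval from -0.13 to 0.28 and an adjusted p of 0.584 (edgeR). *Cd3d* (gene ID 12500, 44981769 to 44987052 on the same chromosome) had 218, 191, 732 and 686 CPM, and *Cd3g* (gene ID 12502, 44969572 to 44980431) had 349, 326, 801 and 785 CPM. Both were slightly higher in Lrig1+ cells in each set, and for both the sets lay much farther apart than the groups. *Cd3d* differed by 0.14 ± 0.09 on the log2 scale (95% interval -0.06 to 0.35; edgeR adjusted p = 0.284) and *Cd3g* by 0.06 ± 0.09 (95% interval -0.15 to 0.28; adjusted p = 0.662). The missed threshold does not show equal levels, and the intervals of *Cd3d*, *Cd3e* and *Cd3g* reach up to log2 differences of 0.35, 0.28 and 0.28.

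*Cd3d* and *Cd3g* are neighbours that are read in opposite directions, with starts 1338 bases apart, and the CD3 genes together span 40091 bases. On the CPM scale these neighbours were also the members that differed most between the sets. From set 1 to set 2 the CPM of *Cd3d* was 3.36-fold higher in Lrig1+ and 3.58-fold higher in Lrig1- cells, and that of *Cd3g* was 2.30-fold and 2.41-fold higher. For the other 7 genes the CPM ratio between sets ran from 0.961 to 1.55. In TPM the order of these differences was another one, *Lat* for example having 1009, 1113, 590 and 608. No test was made between sets, which are tables and not conditions of the study.

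*Cd247* (gene ID 12503, chromosome 1 from 165779952 to 165871153) encodes the ζ chain, which carries most of the phosphorylation motifs of the receptor. It had 314, 347, 426 and 539 CPM and was the lower in Lrig1+ cells in each set, with log2 ratios of -0.14 and -0.34, though the groups overlapped across sets. The fit gave a log2 fold change of -0.24 ± 0.09 (95% interval -0.45 to -0.03; edgeR adjusted p = 0.0946). With DESeq2's size factors in the same fit it passed the threshold (adjusted p = 0.0377), as it did in DESeq2's Wald test (adjusted p = 0.00238), and over the 6 alternatives that kept the table as a term the adjusted p ran from 0.00238 to 0.194. The transcript annotated as ζ held 92.4% to 94.1% of the gene's TPM. The 3 transcripts that start upstream had 838, 819, 1099 and 1998 counts. *Cd247* overlaps *Pou2f1*, *Gm23402* and *Gm32999* in the annotation. The library kit keeps the strand, but whether the counting used it is not stated, so reads of overlapping genes cannot be told apart here.

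**Figure D2:**
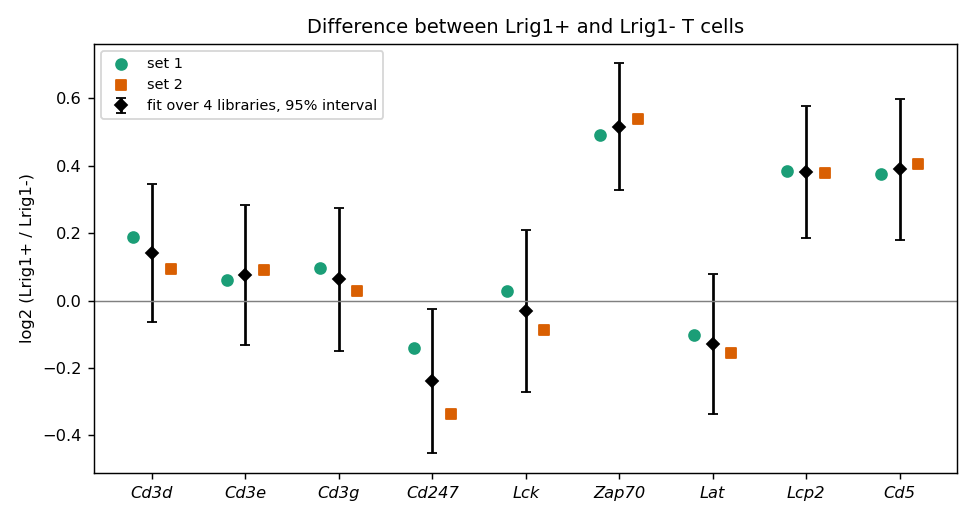
Log2 of the Lrig1+ to Lrig1- ratio (y axis) for each gene (x axis), in set 1 (circles), in set 2 (squares) and from the fit over 4 libraries (diamonds, with 95% intervals). The intervals of *Zap70* (0.33 to 0.70), *Lcp2* and *Cd5* lie above 0, that of *Cd247* lies just below 0, and the other 5 include 0.

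*Zap70* (gene ID 22637, chromosome 1 from 36761798 to 36782821) encodes the kinase that binds the phosphorylated receptor tails. It had 346, 246, 358 and 246 CPM, with means of 352 ± 8.11 (SD, n = 2) for Lrig1+ and 246 ± 0.0378 (SD, n = 2) for Lrig1-. On this scale the groups did not overlap, and the sets nearly coincided. In TPM, which is not TMM-normalized, the same libraries had 392, 288, 243 and 154.5, so the Lrig1+ library was again the higher in each set, but the groups overlapped across sets. Its log2 fold change was 0.52 ± 0.08 (SE; 95% interval 0.33 to 0.70; edgeR adjusted p = 0.00342), with log2 ratios of 0.49 and 0.54 in the sets, and it passed the threshold in all 6 alternatives that kept the table as a term. The transcript from the first start held 16299, 11059, 19861 and 13211 counts, or 90.5% to 99.3% of the gene's counts. The transcript from the next start downstream held 536, 134, 427 and 39 counts, and those from the region after it held 653, 161, 230 and 46, with more in the Lrig1+ library of each set. The transcript from the last start held 520, 433, 28 and 2 counts, close between the groups in set 1 and nearly missing from set 2. In the fit over 14435 start groups the log2 fold changes of these minor groups were 2.63 (edgeR adjusted p = 0.180), 2.08 (adjusted p = 0.132) and 1.59 (adjusted p = 0.516), none of which passed. *Zap70* overlaps *Gm18828*.

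*Lcp2* (gene ID 16822, chromosome 11 from 34046928 to 34092281) encodes SLP-76, the cytosolic adaptor that ZAP-70 phosphorylates. It had 443, 339, 485 and 373 CPM, and the lower Lrig1+ library exceeded the higher Lrig1- library. In TPM, with 305, 240, 204 and 145, the groups overlapped across sets. The log2 fold change was 0.38 ± 0.08 (SE; 95% interval 0.18 to 0.58; edgeR adjusted p = 0.0146), and the ratio was 0.38 in each set. *Cd5* (gene ID 12507, chromosome 19 from 10718107 to 10739026), the gene of the dampening surface protein, had 539, 416, 688 and 519 CPM. Its groups did not overlap in CPM either, the lower Lrig1+ library being 539 and the higher Lrig1- library 519, but in TPM, with 651, 516, 507 and 354, they did. The log2 fold change was 0.39 ± 0.09 (SE; 95% interval 0.18 to 0.60; edgeR adjusted p = 0.0167), with 0.37 and 0.40 in the sets. Both genes kept their calls in 5 of the 6 alternatives with the table as a term. With no filter on low counts the adjusted p was 0.0600 for *Lcp2* and 0.0655 for *Cd5*, the highest of the 6 in both cases. *Lcp2* overlaps *4930469K13Rik*.

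*Lat* (gene ID 16797, chromosome 7 from 126363827 to 126369705), the membrane scaffold phosphorylated by ZAP-70, had 511, 549, 491 and 547 CPM. On this scale both Lrig1+ libraries lay below both Lrig1- libraries, but the difference was small, -0.13 ± 0.09 on the log2 scale (95% interval -0.34 to 0.08; edgeR adjusted p = 0.332). Thus the genes of the partner scaffolds LAT and SLP-76 gave values of opposite sign, of which the *Lcp2* value alone passed. *Lat* overlaps *Mir7058*.

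*Lck* (gene ID 16818, chromosome 4 from 129548344 to 129573641) encodes the kinase that begins the cascade. Summed over its transcripts it had 838, 822, 1125 and 1197 CPM, higher in Lrig1+ cells in set 1 and lower in set 2. The log2 fold change was -0.03 ± 0.10 (95% interval -0.27 to 0.21; edgeR adjusted p = 0.867). It is the only one of the 9 whose direction differed between the sets.

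*Lck* is known to be transcribed in mice from separate promoters, the near one active mainly in thymocytes and the far one also in mature T cells. Among the 6 listed transcripts, 1 starts at the far site at 129573641 and 5 start in the near region between 129558372 and 129558822, which is 14819 to 15269 bases closer to the coding part. This division was made after the data had been seen. The far start had 923, 806, 1427 and 1327 CPM (normalized over start groups), higher in Lrig1+ cells in each set, with a log2 fold change of 0.15 ± 0.05 (SE; edgeR adjusted p = 0.270). The near starts had 138, 250, 143 and 282 CPM, from 5665, 9314, 5902 and 11313 counts. They were lower in both Lrig1+ libraries than in either Lrig1- library, by log2 ratios of -0.86 and -0.97. The near starts held 13.0%, 23.7%, 9.13% and 17.5% of the *Lck* counts. For Lrig1+ the share averaged 11.1% ± 2.73 (SD, n = 2), against 20.6% ± 4.36 (SD, n = 2) for Lrig1-, a difference of -10.7 percentage points in set 1 and -8.37 in set 2.

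**Figure D3:**
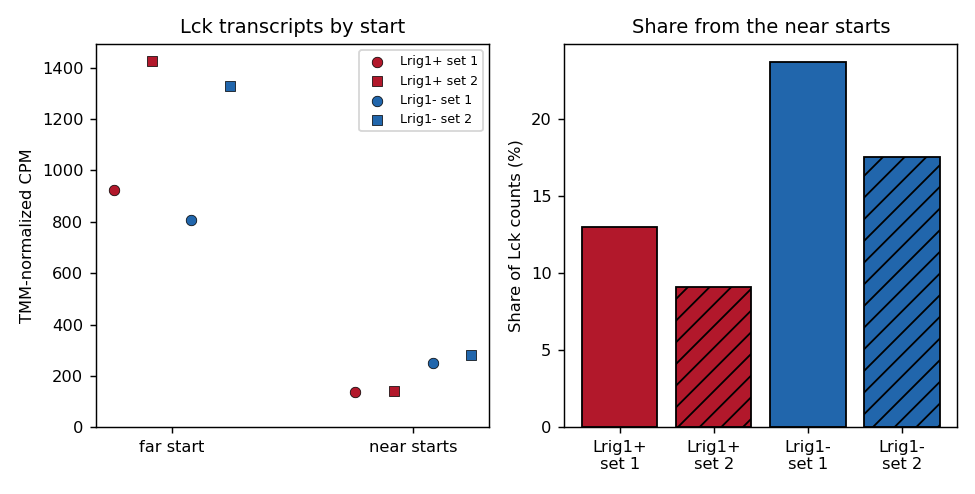
Left, TMM-normalized CPM of *Lck* transcripts from the far start and from the near starts, with 1 point per library. Right, the share of *Lck* counts from the near starts in percent, with 1 bar per library and hatched bars for set 2, where the Lrig1+ libraries (13.0% and 9.13%) lie below the Lrig1- libraries (23.7% and 17.5%).

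None of these *Lck* values passed a test after adjustment. The fitted log2 fold change of the near starts was -0.92 ± 0.06 (SE; 95% interval -1.12 to -0.71; unadjusted p = 0.00143), but over all start groups the edgeR adjusted p was 0.121, and 0% of 14435 start groups were called while 3366 had an unadjusted p under 0.05. The use of the near starts relative to the rest of the gene (diffSpliceDGE) had a log2 value of -0.90 with an unadjusted p of 0.0037 and an adjusted p of 0.857, in a test that called 0% of 5273 start groups and gave 185 an unadjusted p under 0.05. An exact permutation test of the share, two-sided, gave p = 0.333, the smallest that 2 libraries against 2 can give. Most near-start counts were assigned to 1 transcript, with 4005, 7091, 3933 and 9429 counts. Among the others, variant 1 had 529, 1051, 894 and 814 counts and variant X3 had 931, 1021, 448 and 441. Variant X2 had 64, 56, 293 and 576 counts and variant X1 had 136, 95, 334 and 53. In set 2, variants 1, X3 and X1 were thus not lower in Lrig1+ counts, and the near-start difference lay mainly in that 1 transcript. The transcripts of both regions end at 129548344 or 129548349, so they overlap, and StringTie's division of reads among them is an estimate. *Lck* overlaps *Mir8119*.

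Levels of different genes can be set side by side only per length, and TPM (transcript abundance scaled for length and to the same total in each library) is used for this. The receptor chain genes *Trac*, *Trbc1* and *Trbc2*, which encode the constant parts of the α and β chains, had the highest levels, 1860 to 2112, 1865 to 2078 and 3165 to 4210 TPM over the 4 libraries. *Trbc1* and *Trbc2* are nearly identical, so the division of reads between them is uncertain. *Cd3g* ran from 818 to 1195 TPM, *Lat* from 590 to 1113, *Lck* from 795 to 992, *Cd3e* from 573 to 808, *Cd3d* from 386 to 870, *Cd5* from 354 to 651, *Cd247* from 381 to 507, *Zap70* from 154.5 to 392 and *Lcp2* from 145 to 305. *Zap70* was the eighth and *Lcp2* the lowest of the 9 in every library. Each gene's range overlapped with those of its neighbours in this order, and the order of the first 7 changed between the sets, *Lat* being the highest in both libraries of set 1 and *Cd3g* in both of set 2. Per 100 TPM of *Cd3e*, *Cd3g* had 105, 103, 181 and 189, *Cd3d* had 52.5, 48.5, 132 and 133 and *Cd247* had 55.8, 63.7, 57.7 and 76.7. The ratios of *Cd3g* and *Cd3d* to *Cd3e* thus differed mainly between the sets, while that of *Cd247* was lower in the Lrig1+ library of each set. From set 1 to set 2, *Cd3e* was higher on the CPM scale and lower on the TPM scale in both groups, so its order between the sets depends on the scaling, whereas *Cd3d* and *Cd3g* were higher in set 2 on both scales.

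**Figure D4:**
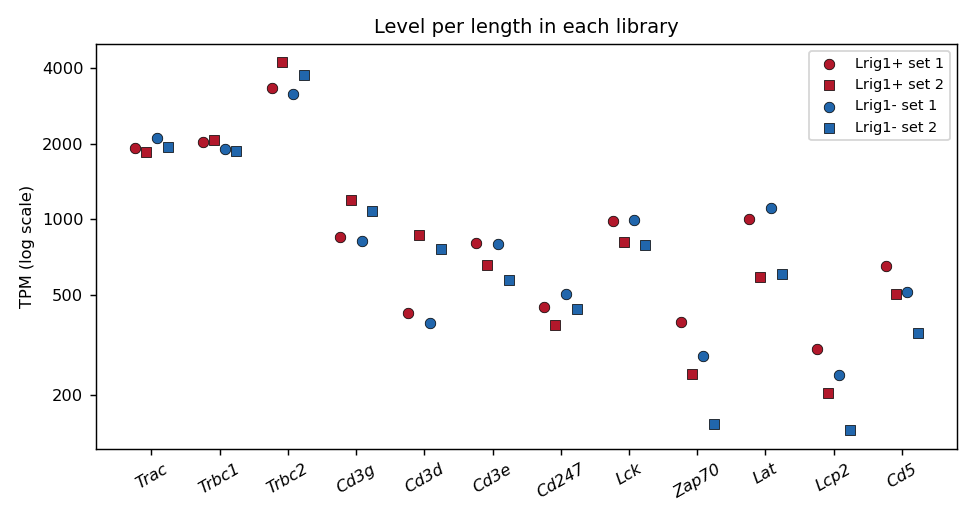
TPM on a log scale (y axis) of the receptor constant chains and the 9 genes (x axis), with 1 point per library. *Trbc2* lies highest (3165 to 4210) and *Lcp2* lowest (145 to 305). The squares of set 2 lie apart from the circles of set 1 for *Trbc2* and each of the 9 genes, most clearly for *Cd3d*, *Cd3g* and *Lat*.

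A further 78 genes of the pathway, in 6 lists by role, set these values in context. Of the 77 that could be tested, 18 were higher and 23 lower in Lrig1+ cells with the table as a term, and 36 did not pass, against 14.6% higher and 12.8% lower among all genes tested, which is also the background for the counts of each list below. Their median log2 fold change was -0.11, against -0.04 over all genes. Without the table term 0 were called. The constant chains *Trac*, *Trbc1* and *Trbc2* did not pass, with log2 fold changes of -0.14, 0.09 and 0.08, and *Ptcra*, the pre-T cell receptor chain of thymocytes, was left out by the filter on low counts. Among the 7 genes of coreceptors, the CD2 family and CD45, 1 was higher and 2 were lower. *Cd2*, an adhesion receptor of T cells, rose by 0.42 ± 0.09 on the log2 scale (edgeR adjusted p = 0.0113). *Cd4* had a log2 fold change of -0.03 and *Ptprc*, the CD45 gene, of -0.15, neither past the threshold. *Cd8a* and *Cd8b1*, which mark another T cell lineage, fell by 0.73 and 0.70 (adjusted p = 0.0366 and 0.00278). *Cd8a* had 3.10, 3.53, 14.3 and 30.5 CPM, so its difference lay mostly in set 2, where the B cell markers also differed. The part of other cells in this difference was not tested. With the table as a term, *Cd8a* passed in 1 of 6 alternatives (adjusted p from 0.0275 to 0.221) and *Cd2* in 5 of 6 (4.53e-08 to 0.0528).

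Of the 6 kinases beside *Lck* and *Zap70*, 4 were lower (12.8% of all genes), 1 was higher (14.6%) and 1 did not pass. *Txk* and *Tec* belong to a kinase family that acts on phospholipase Cγ downstream of ZAP-70. *Txk* had 56.9, 119, 51.1 and 139 CPM (log2 fold change -1.26 ± 0.10, SE; edgeR adjusted p = 0.000169) and *Tec* had 11.8, 17.6, 11.4 and 29.0 CPM (-0.97, adjusted p = 0.00686), which passed in 4 of 6 alternatives (0.000487 to 0.0706). *Syk*, the relative of ZAP-70 used mainly by B cells and myeloid cells, had 12.7, 21.8, 26.3 and 56.9 CPM (log2 fold change -0.96, adjusted p = 0.000819). B cell markers summed to 98.3, 78.5, 391 and 775 CPM in the same libraries, and their part in the *Syk* value was not tested. *Zap70* thus rose and its relative *Syk* fell. *Fyn*, the Src family kinase that works beside Lck, had 489, 386, 414 and 353 CPM (log2 fold change 0.29, adjusted p = 0.0455), named after its value was seen, and *Csk*, the kinase that restrains Lck, had a log2 fold change of 0.02 (adjusted p = 0.920).

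**Figure D5:**
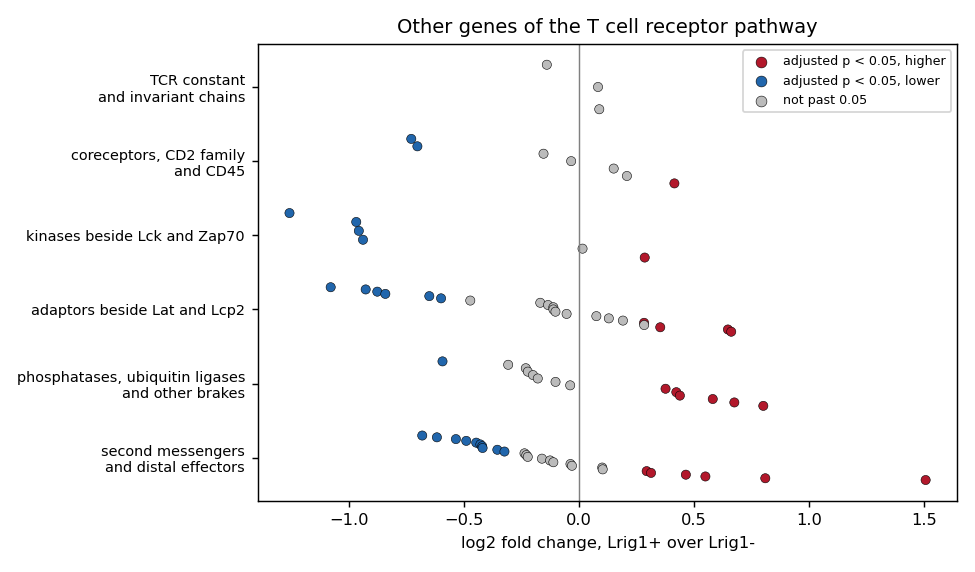
Log2 fold change of Lrig1+ over Lrig1- cells (x axis) for 77 further pathway genes in 6 lists (y axis), with 1 point per gene, red for genes higher and blue for genes lower at an adjusted p under 0.05 and grey for the rest. In the kinase list 4 of 6 are lower, and in the list of brakes 6 of 14 are higher and 1 is lower. Among all genes tested, 14.6% were higher and 12.8% lower. The list of brakes does not hold *Csk* or *Pag1*, which are in the kinase and adaptor lists.

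Of 21 adaptors beside *Lat* and *Lcp2*, 4 were higher, 6 were lower and 11 did not pass. *Pag1*, which anchors Csk at the membrane, had 156, 303, 85.2 and 195 CPM (log2 fold change -1.08, edgeR adjusted p = 0.000186). *Themis*, an adaptor of thymocyte selection, had 90.3, 160, 115 and 234 CPM (-0.93, adjusted p = 0.000258), and *Trat1*, a transmembrane adaptor that binds the receptor complex, had 75.9, 114, 111 and 182 CPM (-0.65, adjusted p = 0.000837). *Grap2* encodes Gads, the bridge between LAT and SLP-76. It had 442, 711, 212 and 423 CPM (-0.84, adjusted p = 0.00118), lower in Lrig1+ cells in each set while its partner *Lcp2* was higher in each. The adaptors that rose, named after their values were seen, were *Dok1* by 0.66, *Lax1* by 0.65, *Sh2d2a* by 0.35 and *Grap* by 0.28 on the log2 scale. *Fyb* and *Skap1*, which link the receptor to integrins, had log2 fold changes of -0.13 and -0.11 and did not pass.

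In the list of 14 phosphatases, ubiquitin ligases and other brakes, 6 were higher (14.6% of all genes), 1 was lower (12.8%) and 7 did not pass. *Ubash3b* and *Ubash3a* encode the phosphatase Sts-1 and its relative Sts-2, which act on ZAP-70. *Ubash3b* had 79.0, 45.0, 74.9 and 43.3 CPM (log2 fold change 0.80, edgeR adjusted p = 0.000326) and *Ubash3a* had 177, 135, 155 and 120 CPM (0.38, adjusted p = 0.00814). *Sla*, the Src-like adaptor that promotes loss of the receptor from the surface, had 303, 196, 362 and 250 CPM (0.58, adjusted p = 0.00202), and *Ptpn22*, a phosphatase of Lck and ZAP-70, had 223, 175, 236 and 167 CPM (0.42, adjusted p = 0.00786), which passed in 4 of 6 alternatives (0.000163 to 0.128). In these 4 genes, as in *Zap70*, *Lcp2* and *Cd5*, the groups did not overlap on the CPM scale, with Lrig1+ higher (14.3% of all genes). The 4 were named for the smallest p in their list, so this separation is no further result. In TPM the groups of *Zap70*, *Lcp2* and *Cd5* overlapped, as given above. *Dgka*, a diacylglycerol kinase, was the 1 that fell, by 0.59 on the log2 scale (adjusted p = 0.00978), and is named after its value was seen. *Dgkz*, another diacylglycerol kinase of this list, went the other way. It had 1019, 704, 539 and 424 CPM (0.44, edgeR adjusted p = 0.0163) and is also named after its value was seen. *Cbl* and *Ptpn6*, a ubiquitin ligase and the phosphatase SHP-1, had log2 fold changes of -0.22 and -0.18 and did not pass.

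Among 26 second messenger and distal effector genes, 6 were higher, 10 were lower and 10 did not pass. *Vav2*, an exchange factor that acts on the cytoskeleton, had 78.8, 24.02, 45.4 and 18.5 CPM (log2 fold change 1.51 ± 0.12, SE; edgeR adjusted p = 0.000148). Its relatives are named after their values were seen. *Vav1*, at a higher CPM (224, 245, 192 and 219), did not pass (-0.16, adjusted p = 0.167). *Vav3* was higher (0.31, adjusted p = 0.0435). *Nfatc1*, a calcium-dependent transcription factor, had 432, 245, 371 and 213 CPM (0.81, adjusted p = 0.000442), and *Stim2*, a calcium sensor of the endoplasmic reticulum, had 85.1, 59.4, 57.6 and 38.5 CPM (0.55, adjusted p = 0.00187). Other calcium genes of the list, named after their values were seen, went both ways. *Stim1* was lower, with 133, 170, 133 and 193 CPM (-0.45, adjusted p = 0.00616). *Orai2* was lower (-0.53, adjusted p = 0.00285) and *Orai1* higher (0.47, adjusted p = 0.00408). *Nfatc2* (-0.04) and *Nfatc3* (-0.22) did not pass. *Sos1*, an exchange factor for Ras, had 58.1, 85.8, 24.2 and 38.7 CPM (-0.62, adjusted p = 0.00154). *Prkcq*, the protein kinase C of the receptor synapse, and *Itpkb*, an inositol trisphosphate kinase, had log2 fold changes of -0.23 and 0.10 and did not pass.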

How the data were processed

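RNA of CD4+Lrig1+ and CD4+Lrig1- T cells was sequenced by the authors, who trimmed reads with Trimmomatic 0.38, mapped them with HISAT2 2.1.0 and assembled transcripts with StringTie 2.1.3b (submitters' processing notes, which also name Bowtie2 2.3.4.1). The notes name GRCm38, and the members' positions equal those of RefSeq GRCm38.p6. The deposited estimated counts are StringTie values per transcript, not normalized. The deposited FPKM values are scaled by transcript length and mapped fragments, and the deposited TPM values by transcript length to a constant total. The labels list 6 samples, and 4 libraries in 2 tables whose columns name the group were used. A further 6 columns of per-sample values were not used, because their names do not give the group, and the authors' comparison columns were not used.

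Counts were rounded and summed per gene. In R 4.3.3, filterByExpr of edgeR 4.0.16 removed low genes, TMM set the library sizes, and glmQLFTest (quasi-likelihood) was run with the table as a term and a Benjamini-Hochberg threshold of 0.05. For the ratio of both libraries of a table, 2 was the prior count. Genes were to be compared by FPKM, but TPM was used, which differs by a constant within a library. Transcripts whose starts lie within 1000 bases were summed as start groups, and relative use was tested with diffSpliceDGE, both added after the data had been seen. Alternatives used DESeq2 1.42.0 and limma 3.58.1. The procedure was run on data simulated from the means of the same fit, to check that changes put in were estimated. This does not show how many calls in the real data are false. Sequences came from RefSeq and were read with Python 3.11.15. The depth was 44865070 to 59977951 estimated counts per library.

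The 9 members, the pathway lists and the tests were chosen with earlier results of these data known. From each list, up to 4 called genes with the smallest p and up to 2 uncalled genes with the highest mean count are named, with all constant chains and *Cd4*. Of these, 1 gene that met this rule is not reported here. *Lrig1*, *Foxp3* and marker lists (B cell, T cell, CD8 T cell, NK cell, myeloid and regulatory T cell) served as checks. The 5 regulatory T cell markers were all higher in CD4+Lrig1+ T cells.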

Additional observations from a re-analysis of the deposited data

How the results depend on the processing

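No paired analysis was possible by replicate number, because the columns carry none. The reported fit instead compares the libraries within each table, so the table term is its block. The table term decided every call. Without it, 0 genes were called higher and 0 lower, 0 of 9 members and 0 pathway genes in either direction. With DESeq2's size factors 2208 genes were higher and 2388 lower, and with DESeq2's Wald test 1848 and 1969. In both, 1 member, *Cd247*, was called lower. With no filter on low counts, 1304 genes were higher and 820 lower, 1 member (*Zap70*) was higher, and 10 pathway genes were higher. With limma on log2(FPKM + 1), 1911 were higher and 1016 lower, so 65.3% of calls were higher against 53.4% of the 2358 and 2056 calls reported. The members' median log2 fold change was 0.126 there and with log2(FPKM + 0.1), against 0.0758. Leaving out each library in turn with the table term leaves the ratio of the other set and no test, and the median ran from 0.0968 (without either library of set 2) to 0.157 (without either of set 1). Leaving each out without the table term gave 1 to 88 genes higher, 0 to 2 lower, 0 to 0 members and 0 to 0 pathway genes. The near-start *Lck* difference ran from -0.84 to -0.97 in 7 alternatives and was called in none of the 3 with a test. No named value that had passed the test changed its direction. Causes of these shifts were not tested.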
